A study of Rattus norvegicus with 18 samples.

Results

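The genes examined here encode the receptors for tumor necrosis factor (TNF) and the NF-κB machinery downstream of them. They were the 10 genes with the symbols Tnfrsf1a, Tnfrsf1b, Traf2, Ikbkb, Nfkb1, Rela, Nfkb2, Relb, Nfkbia, and Bcl3, out of 38445 genes in the files, picked by symbol with earlier results of these data known. Their levels were measured by RNA-Seq in the dorsal hippocampus of 18 adult male Sprague-Dawley rats, aged 75–85 days when purchased, with 6 rats per group. All rats received a Lieber-DeCarli liquid diet as their only food and fluid. Control rats received it without ethanol, ethanol rats received it with 9% (v/v) ethanol for 16 days without withdrawal, and withdrawal rats received 9% ethanol for 15 days and then control diet for 24 h. The 9% ethanol diet followed a stepwise introduction of ethanol. The question put to each gene was whether its mRNA level differed between the groups.

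TNF binds to receptors on the cell surface, and the receptor encoded by Tnfrsf1a is made by most cell types whereas the one encoded by Tnfrsf1b is more restricted, in brain mainly to microglia and endothelial cells. The bound receptor gathers adaptors such as TRAF2 and activates the IκB kinase complex, whose catalytic subunit IKKβ is encoded by Ikbkb, and the kinase marks the inhibitor IκBα (Nfkbia) for destruction so that dimers of Nfkb1 and Rela products enter the nucleus. In the slower, noncanonical branch the Nfkb2 product is processed and pairs with RelB, and several genes of the pathway, among them Nfkbia, Nfkb2, Relb, and Bcl3, are known targets of NF-κB.

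All 10 genes were among the 17853 genes kept for testing, which had more than 0.5 CPM (read counts relative to the library total, scaled by the TMM method of edgeR) in at least 1 rat. Of the 10, 9 were above this level in all 18 rats, and Bcl3 was above it in 17. In every gene the highest of the 18 rats was a withdrawal rat, namely withdrawal rat 1 for 6 genes, rat 6 for 3, and rat 3 for 1. Of all genes tested, 41.7% were highest in a withdrawal rat, with 11.7% in rat 1, 5.44% in rat 6, and 2.61% in rat 3. Total counts on genes lay between 30873228 and 42679748 per rat. The library index sequences came from 3 sets, of which the first held the 6 control rats, the second held the 6 ethanol rats and withdrawal rats 1 and 2, and the third held the other 4 withdrawal rats, so that differences from control cannot be told apart from differences between index sets. Neuronal markers were abundant, and of 5 markers of hippocampal neurons Prox1, Neurod6, and Wfs1 had means of 129, 225, and 271 CPM in control rats, whereas Zbtb20 and Spink8 were at 3.91 and 0.244 CPM.

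Promoter sequences are shown because NF-κB binds a short G-rich site and several of the genes are its known targets. The RefSeq promoter table (rat assembly GRCr8, 250 bases before to 50 after the start of each gene) held 8 of the 10 genes, and 2 genes, Relb and Ikbkb, had no entry. The loose motif GGG, any 5 bases, and CC was searched on both strands, with overlapping matches counted apart. It was found in 7 of the 8 members and in 47.3% of all 33469 promoters. Of the 4 genes that were increased in withdrawal, Nfkb1 had 6 matches in its window, Bcl3 had 5, and Tnfrsf1a had 0. The 250 bases before the start of Nfkb1 (GRCr8, chr2:226805463-226805712, minus strand) and of Bcl3 (chr1:88613556-88613805, minus strand) are given 5′ to 3′, with the matches in capitals.
Nfkb1: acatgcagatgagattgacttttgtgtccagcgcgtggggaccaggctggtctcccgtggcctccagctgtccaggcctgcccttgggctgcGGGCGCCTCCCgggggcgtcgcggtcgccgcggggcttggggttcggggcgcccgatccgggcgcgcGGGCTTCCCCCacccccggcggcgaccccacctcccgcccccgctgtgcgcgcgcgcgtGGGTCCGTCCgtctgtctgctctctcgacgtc
Bcl3: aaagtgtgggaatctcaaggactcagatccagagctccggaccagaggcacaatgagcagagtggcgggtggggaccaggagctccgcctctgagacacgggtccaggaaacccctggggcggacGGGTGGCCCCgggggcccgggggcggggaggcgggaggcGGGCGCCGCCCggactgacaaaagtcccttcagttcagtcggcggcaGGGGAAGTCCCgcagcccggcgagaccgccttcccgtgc

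A second motif, GGNNNTTCC, which is closer to the site bound by Rel proteins and was added after the data were seen, was found in 5 of the 8 members and in 18.3% of all promoters. The genes held 1 match (Nfkb1), 2 (Nfkb2), 3 (Nfkbia), 2 (Bcl3), and 1 (Tnfrsf1a). Some of them, picked by eye after they were seen, are shown in capitals within 29 bases for increased genes and for Nfkb2 and Nfkbia, which did not pass the threshold in either comparison of withdrawal. The match in Nfkb1 began 5 bases after the start (chr2:226805440-226805468) and reads the same motif on both strands. The one shown for Nfkb2 began 19 bases before the start (chr1:255108345-255108373), those of Nfkbia 180 and 31 bases before it (chr6:78597234-78597262 and chr6:78597085-78597113), and the one of Bcl3, on the opposite strand, 37 bases before it (chr1:88613574-88613602). The match of Tnfrsf1a began 81 bases before the start (chr4:159837028-159837056).
Nfkb1: gacgtcagtgGGAATTTCCagccaggaag
Nfkb2: ggtattttcgGGACTTTCCtaagagcact
Nfkbia, farther: ctggtcgggaGGACTTTCCagccactcag
Nfkbia, nearer: tgactggcttGGAAATTCCccgcgcctga
Bcl3: cggcggcaggGGAAGTCCCgcagcccggc
Tnfrsf1a: ccgctccccaGGCTCTTCCggtcccgctc
The same 9 bases, GGACTTTCC, stood in Nfkb2 and Nfkbia. The letters TTCNNNGAA, the motif of STAT factors, were found in 0 of the 8 members and in 8.87% of all promoters. With 8 members, a count of 0 cannot be told apart from that share. The window is short, and the paper reported binding of phosphorylated STAT3 in the first intron of Tnfrsf1a, outside the window. A match describes letters only, and none of the promoter windows was measured here.

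The 10 genes spanned a wide range of levels. Per kilobase of exon, Nfkbia was the most abundant in control rats, with 13.5 ± 2.47 CPM per kb (mean ± SD, n = 6), and Rela (9.39 ± 0.740) and Ikbkb (9.36 ± 0.358) followed. Nfkb1 stood at 7.83 ± 0.269, Traf2 at 5.88 ± 0.413, and Tnfrsf1a at 4.62 ± 0.349 CPM per kb. The noncanonical subunits were lower, with 1.01 ± 0.108 CPM per kb for Nfkb2 and 0.912 ± 0.102 for Relb, and Tnfrsf1b (0.710 ± 0.128) and Bcl3 (0.194 ± 0.0347) were the lowest. In control rats the ranges of neighbors overlapped between Nfkbia, Rela, and Ikbkb and between Nfkb2, Relb, and Tnfrsf1b, and the other neighbors did not overlap. The order was the same in ethanol rats. In withdrawal rats, Tnfrsf1a (7.10 ± 2.27 CPM per kb) moved above Traf2 (5.96 ± 0.723) and Relb (1.34 ± 0.253) above Nfkb2 (1.26 ± 0.243), with overlapping ranges in both pairs.

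**Figure D1:**
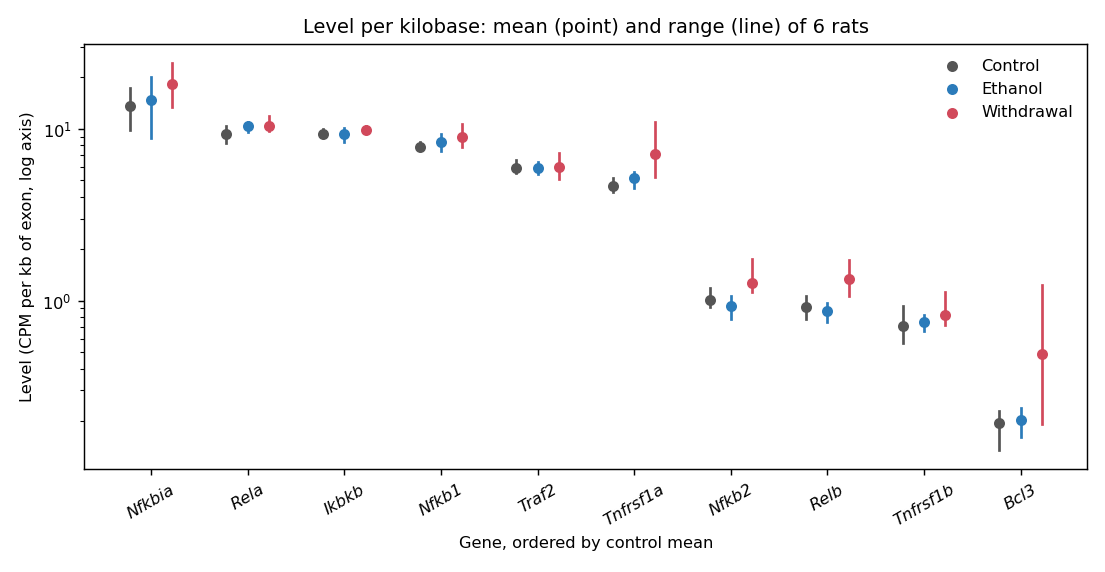
Level of each gene in CPM per kilobase of exon (vertical log axis), ordered by the control mean, with points for the mean and lines for the range of the 6 rats of each group. The genes fall from 13.5 CPM per kb for Nfkbia to 0.194 for Bcl3 in control rats, and the withdrawal ranges of Tnfrsf1a and Bcl3 are the widest relative to control.

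In withdrawal, 4 of the 10 genes were increased over control, namely Tnfrsf1a, Nfkb1, Relb, and Bcl3, with q < 0.1 by limma-voom with 3 surrogate variables (unnamed sources of variation estimated from the data) and Benjamini-Hochberg adjustment over all genes tested. None fell. Over all genes tested, 5.41% were DE (differentially expressed) in this comparison and 2.85% were increased. All 10 genes had a positive log2 fold change, with a median of 0.26, a lowest value of 0.05 (Traf2), and a highest value of 1.09 (Bcl3), whereas the median of all genes was 0.00 and 50.1% of them were positive. Because the members were chosen with earlier results of these data known, these counts describe the genes and are not a test of the pathway.

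**Figure D2:**
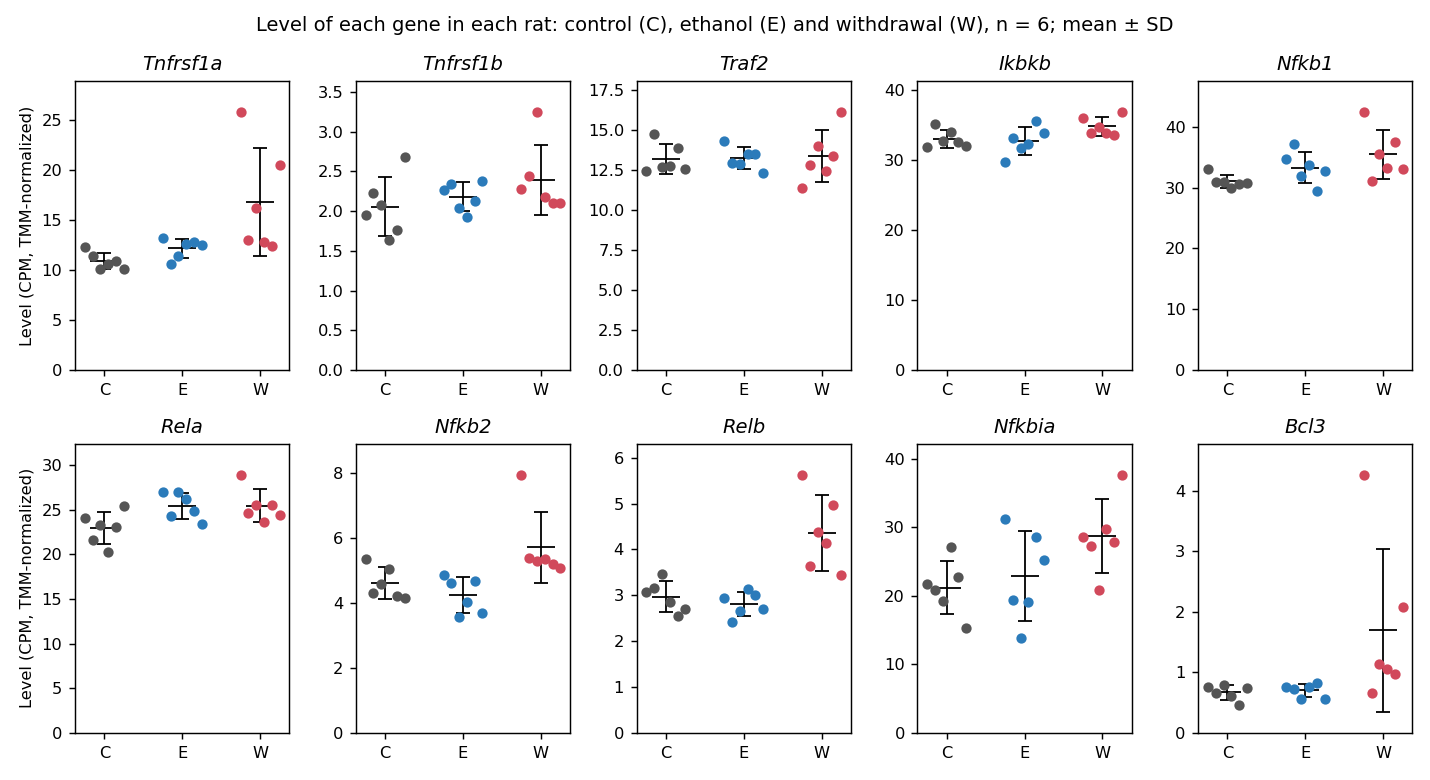
Level of each of the 10 genes (vertical axis, TMM-normalized CPM, starting at 0) in each of the 6 control (C), ethanol (E), and withdrawal (W) rats, with bars for the mean ± SD. Every withdrawal rat lies above every control rat for Tnfrsf1a, while for Bcl3 and Nfkb2 withdrawal rat 1 stands far above the others at 4.26 and 7.94 CPM.

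Of the receptors, Tnfrsf1a (Rnor_6.0, chromosome 4, 157864905 to 157877634, plus strand) encodes the receptor that carries a death domain. Its level was 10.1 CPM in the lowest control rat, 12.3 in the highest, and 10.7 at the median. Ethanol rats lay between 10.6 and 13.2 CPM with a median of 12.5, and withdrawal rats between 12.4 and 25.8 CPM with a median of 14.6. All 6 withdrawal rats were above all control rats, as in 0.521% of all genes tested, and withdrawal rats 1 and 6 (25.8 and 20.5 CPM) stood above the other 4. The increase over control was 1.55-fold (log2 fold change 0.64, SE 0.12, limma-voom q = 0.0199), and the two-sided exact permutation test gave p = 0.00216, the smallest it can give with 6 rats against 6. Without withdrawal rat 1 the withdrawal mean was 15.0 ± 3.42 CPM (SD, n = 5) against 10.9 ± 0.825 CPM in control rats, and the gene kept q = 0.0252 (log2 fold change 0.51), whereas without withdrawal rat 6 it had q = 0.114 and in 4 settings without surrogate variables q lay between 0.107 and 0.234. Tnfrsf1a was also higher in withdrawal than in ethanol rats (log2 fold change 0.52, SE 0.13, limma-voom q = 0.0663; exact permutation p = 0.0390), although 3 of the 6 withdrawal rats overlapped with the ethanol rats, and q was 0.290, 0.205, and 0.347 when ethanol rat 2, ethanol rat 3, or withdrawal rat 6 was left out and 0.108 to 0.283 in 8 other settings. Between ethanol and control the log2 fold change was 0.12 (SE 0.13, limma-voom q = 0.760), with 4 ethanol rats above all control rats and an exact permutation p = 0.0411 that takes no account of surrogate variables.

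Tnfrsf1b (chromosome 5, 163136390 to 163167299, minus strand), which encodes the other TNF receptor, was close to 2 CPM in every group. Control rats lay between 1.64 and 2.68 CPM (median 2.02), ethanol rats between 1.93 and 2.38 CPM (median 2.20), and withdrawal rats between 2.10 and 3.25 CPM (median 2.23). The groups overlapped, and withdrawal rat 3 alone lay above all other rats. Withdrawal and control rats did not differ at this threshold (log2 fold change 0.23, 95% interval −0.06 to 0.52, limma-voom q = 0.372). Whether the 2 receptors differed in their response was not tested.

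Neither the adaptor nor the kinase passed the threshold in any comparison. Traf2 (chromosome 3, 2746061 to 2770690, minus strand) had medians of 12.7, 13.2, and 13.1 CPM in control, ethanol, and withdrawal rats, and withdrawal rats included both the lowest (rat 1, 11.4 CPM) and the highest (rat 6, 16.1 CPM) of all 18. Its log2 fold change over control was 0.05 in withdrawal rats (95% interval −0.10 to 0.20, limma-voom q = 0.757). Ikbkb (chromosome 16, 74177233 to 74230809, plus strand) lay between 31.8 and 35.1 CPM in control rats (median 32.6), between 29.6 and 35.6 CPM in ethanol rats (median 32.7), and between 33.6 and 36.8 CPM in withdrawal rats (median 34.2). The groups overlapped, with 2 withdrawal rats above all control rats. The interval of its difference from control began close to 0 (log2 fold change 0.08, 95% interval 0.00 to 0.17, limma-voom q = 0.249).

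Of the canonical subunits, Nfkb1 (chromosome 2, 240773520 to 240890053, minus strand), whose product is processed to the DNA-binding partner of RelA, lay between 29.9 and 33.04 CPM in control rats (median 30.8), between 29.4 and 37.1 CPM in ethanol rats (median 33.3), and between 31.2 and 42.4 CPM in withdrawal rats (median 34.4). In withdrawal, 5 of 6 rats lay above all control rats, and rat 1 was the highest. The increase was 1.13-fold (log2 fold change 0.17, SE 0.048, limma-voom q = 0.0736; exact permutation p = 0.00433). Without withdrawal rat 1 the withdrawal mean fell from 35.5 to 34.1 CPM and q was 0.157, and leaving out control rat 2, 3, 4, or 6 or withdrawal rat 3 or 6 also put q above 0.1, at 0.110 to 0.197, and 8 other settings gave q between 0.122 and 0.530. Ethanol rats were intermediate, with 3 above and 1 below all control rats (log2 fold change 0.11, SE 0.052, limma-voom q = 0.409; exact permutation p = 0.0758).

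Rela (chromosome 1, 220992770 to 221003249, plus strand), which encodes the main activating subunit, had nearly the same mean in ethanol and withdrawal rats. It was 22.9 ± 1.81 CPM (SD, n = 6) in control, 25.4 ± 1.47 in ethanol, and 25.4 ± 1.84 in withdrawal rats, with medians of 23.2, 25.5, and 25.1 CPM. In each of the ethanol and withdrawal groups 3 rats lay above all control rats. The log2 fold change over control was 0.14 in withdrawal rats (SE 0.051, limma-voom q = 0.134; exact permutation p = 0.0303) and 0.12 in ethanol rats (SE 0.055, q = 0.367; exact permutation p = 0.0281), and neither passed the threshold over all genes, although the first had q = 0.0997 with 4 surrogate variables. Withdrawal and ethanol rats differed by 0.02 on the log2 scale (95% interval −0.10 to 0.14).

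Of the noncanonical subunits, Relb (chromosome 1, 80517081 to 80545019, minus strand) rose in withdrawal over both other groups. Control rats lay between 2.55 and 3.47 CPM (median 2.97), ethanol rats between 2.43 and 3.14 CPM (median 2.83), and withdrawal rats between 3.44 and 5.63 CPM (median 4.25). All 6 withdrawal rats were above all ethanol rats, as in 0.611% of genes tested, and 5 of 6 were above all control rats, while withdrawal rat 6 fell just below the highest control rat. The increase over control was 1.40-fold (log2 fold change 0.49, SE 0.11, limma-voom q = 0.0360; exact permutation p = 0.00433), and that over ethanol was 1.45-fold (log2 fold change 0.54, SE 0.13, q = 0.0578; exact permutation p = 0.00216). The difference between ethanol and control rats did not pass the threshold (log2 fold change −0.05, 95% interval −0.32 to 0.22, limma-voom q = 0.913). Without withdrawal rat 1 Relb kept q = 0.0684 over control, with a withdrawal mean of 4.11 ± 0.609 CPM (SD, n = 5), whereas without withdrawal rat 6 it had q = 0.114 and in 4 settings without surrogate variables q lay between 0.1003 and 0.232. The difference from ethanol had q = 0.290, 0.205, and 0.267 when ethanol rat 2, ethanol rat 3, or withdrawal rat 6 was left out and 0.105 to 0.234 in 4 other settings. Relb rests on few reads, with between 86 and 185 counts per rat.

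Nfkb2 (chromosome 1, 266050634 to 266059277, plus strand), which encodes the partner of RelB, lay between 4.14 and 5.34 CPM in control rats (median 4.44), between 3.56 and 4.85 CPM in ethanol rats (median 4.32), and between 5.06 and 7.94 CPM in withdrawal rats (median 5.32). As with Relb, every withdrawal rat lay above every ethanol rat, and 5 of the 6 withdrawal rats were within a narrow range with a mean of 5.26 ± 0.132 CPM, with rat 1 apart from them. Neither difference passed the threshold, with a log2 fold change of 0.30 over control (SE 0.11, limma-voom q = 0.160; exact permutation p = 0.0130) and 0.38 over ethanol (SE 0.13, q = 0.148; exact permutation p = 0.00216). The difference from ethanol passed without surrogate variables by limma-voom or edgeR (q = 0.0914 and 0.0851), with DESeq2 (q = 0.0805), with quality weights (q = 0.0410), and without ethanol rat 1 or 5 (q = 0.0982 and 0.0762). That from control passed with the replicate block and 3 surrogate variables (q = 0.0888) and had q = 0.325 without surrogate variables.

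Nfkbia (chromosome 6, 76267227 to 76270457, minus strand), which encodes IκBα and is a feedback target of NF-κB, varied widely among rats of 1 group. It ranged from 15.4 to 27.1 CPM in control rats (median 21.3), from 13.9 to 31.2 CPM in ethanol rats (median 22.3), and from 20.9 to 37.7 CPM in withdrawal rats (median 28.3). Of the withdrawal rats, 5 lay above all control rats and 1, rat 6, above all ethanol rats. The log2 fold change was 0.47 over control (SE 0.16, limma-voom q = 0.111; exact permutation p = 0.0195) and 0.49 over ethanol (SE 0.17, q = 0.170; exact permutation p = 0.117), so that neither passed the threshold. It passed against control with DESeq2 or edgeR and 3 surrogate variables (q = 0.0817 and 0.0998), with 4 surrogate variables (q = 0.0980), with the replicate block (q = 0.0701), without ethanol rat 5, withdrawal rat 2, or withdrawal rat 3 (q = 0.0946, 0.0727, and 0.0859) and against ethanol without ethanol rat 5 (q = 0.0569).

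Bcl3 (chromosome 1, 80730758 to 80745273, minus strand), a nuclear IκB-family protein that acts with NF-κB dimers on DNA, had the highest fold change and the lowest level of the members. Control rats lay between 0.467 and 0.785 CPM (median 0.702), ethanol rats between 0.558 and 0.822 CPM (median 0.747), and withdrawal rats between 0.658 and 4.26 CPM (median 1.10). Withdrawal rat 1 (4.26 CPM) and rat 6 (2.08 CPM) were far above the rest, rats 3, 4, and 5 lay between 0.968 and 1.13 CPM, and rat 2 was within the control range. The increase over control was 2.13-fold (log2 fold change 1.09, SE 0.32, limma-voom q = 0.0821; exact permutation p = 0.0108). Over ethanol the log2 fold change was 1.05 (SE 0.36, q = 0.149), and q was 0.0837, 0.0357, and 0.0917 when ethanol rat 5, withdrawal rat 2, or withdrawal rat 4 was omitted. This difference also passed with DESeq2 (q = 0.0334), edgeR with and without 3 surrogate variables (q = 0.0998 and 0.0855), and 4 surrogate variables (q = 0.0778). Without withdrawal rat 1 the withdrawal mean fell from 1.69 to 1.18 CPM, the log2 fold change over control from 1.09 to 0.79, and q rose to 0.146. Leaving out any 1 control rat, ethanol rat 6, or withdrawal rat 6 also put q above 0.1, at 0.103 to 0.257, and 8 other settings gave q between 0.123 and 0.419. The gene was covered by between 17 and 131 counts per rat.

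**Figure D3:**
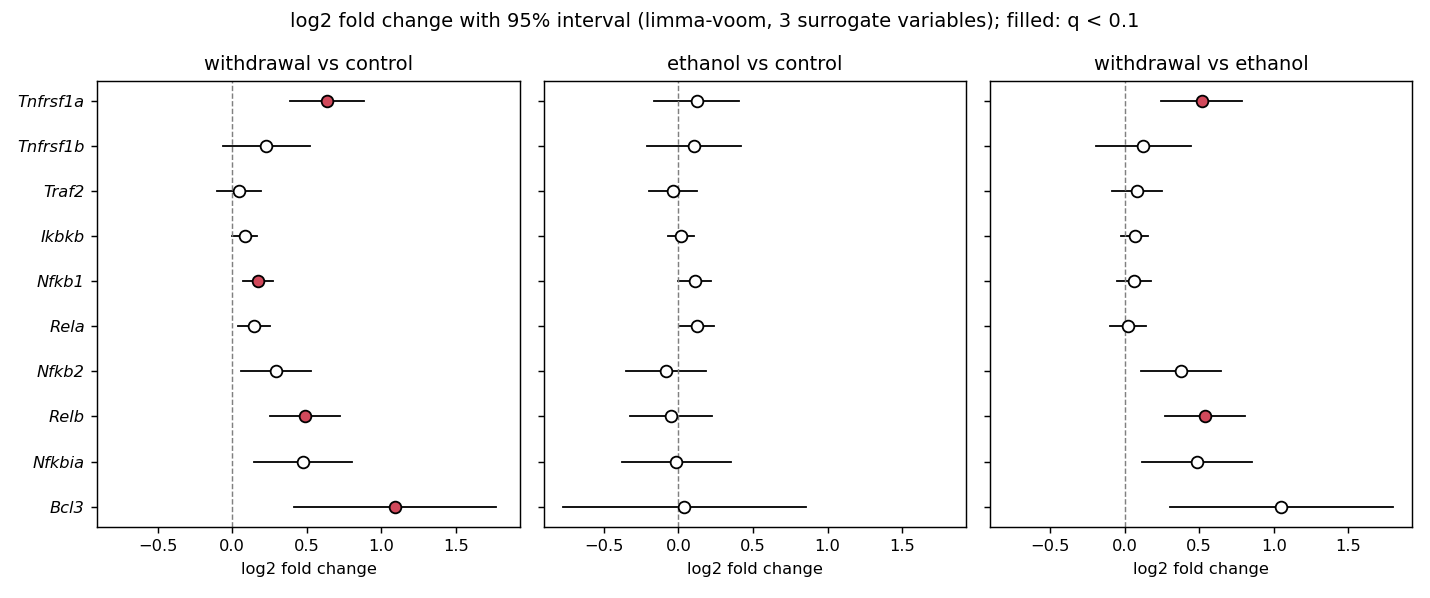
log2 fold change of each gene (horizontal axis) with its 95% interval in the 3 comparisons, from limma-voom with 3 surrogate variables, with filled points for q < 0.1. All points lie above 0 for withdrawal vs. control and withdrawal vs. ethanol, with 4 and 2 filled, and the ethanol vs. control points lie between −0.08 and 0.12 with none filled.

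In ethanol rats without withdrawal, 0 of the 10 genes were DE from control (limma-voom, q < 0.1), where 0.493% of all genes tested were DE. Rela alone had an unadjusted p under 0.05 in this model, as did 12.5% of all genes tested. With every other method tried, edgeR and DESeq2 included, the count was also 0. Of the 10 genes, 6 were higher in ethanol rats, and the median log2 fold change was 0.03. Between withdrawal and ethanol, 2 of the 10 genes were DE, Tnfrsf1a and Relb, both higher in withdrawal, where 2.72% of all genes were DE and 1.23% were increased. All 10 had a positive log2 fold change in this comparison, with a median of 0.25. The 2 comparisons of withdrawal share the withdrawal rats and are not independent of each other.

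Within withdrawal, the rats were unlike each other. Withdrawal rat 1 lay above all control rats in 8 of the 10 genes, rats 3, 4, 5, and 6 in 6 each, and rat 2 in 4. Of all genes tested, 27.7% in rat 1, 17.2% to 28.2% in rats 3 to 6, and 12.8% in rat 2 lay above all control rats. Ethanol rats 1 and 5 lay above all control rats in 4 of the 10 genes, rat 4 in 3, and rats 2, 3, and 6 in 1 each, against 17.2% to 29.2% of all genes. The median difference from the control mean over the 10 genes was 0.45 on the log2 scale in rat 1 and between 0.16 and 0.20 in the other 5 withdrawal rats, and in ethanol rats it lay between −0.04 and 0.16. The SD of withdrawal rats was 11.2 times that of control rats for Bcl3, 6.50 times for Tnfrsf1a, and 3.78 times for Nfkb1. For the other members this ratio lay between 1.02 (Rela) and 2.48 (Relb), and it was not set against all genes. With withdrawal rat 6 omitted, 0 of the 10 genes were DE from control, although the log2 fold changes of Tnfrsf1a and Relb were 0.61 and 0.55, and the calls over all genes fell from 965 to 23. When rat 1 was left out, 2 genes, Tnfrsf1a and Relb, remained DE, as when control rat 2, 3, 4, or 6 was left out, each of which also left 2 genes. The calls over all genes fell too, to 555 without rat 1 and to 615, 448, 508, and 428 without these control rats. In a model lacking surrogate variables, 0 of the 10 were DE from control in withdrawal, with log2 fold changes of 0.56 (q = 0.161) for Tnfrsf1a and 0.52 (q = 0.115) for Relb, whereas 2, Relb (q = 0.0405) and Nfkb2 (q = 0.0914), were DE from ethanol. Over all genes this model called 41 against control and 621 against ethanol.

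**Figure D4:**
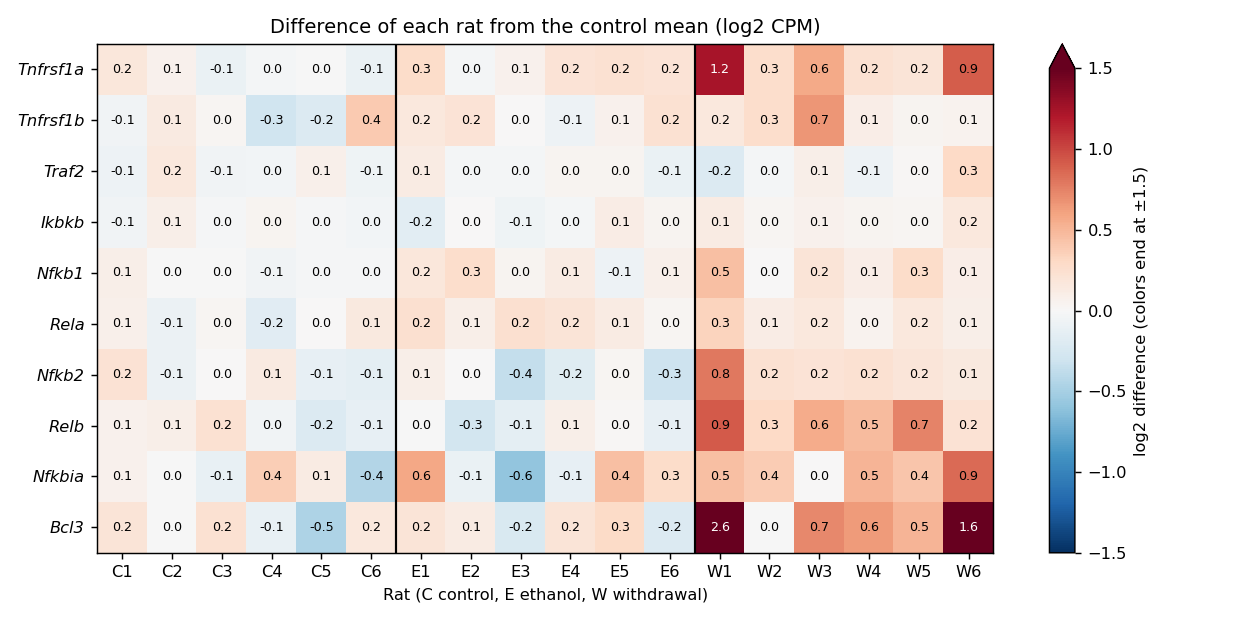
Difference of each rat from the control mean in log2 CPM, for the 10 genes (rows) and 18 rats (columns, C control, E ethanol, W withdrawal), with the value in each cell. Withdrawal rats 1 and 6 hold the highest values for Tnfrsf1a and Bcl3. Relb lies above the control mean in all 6 withdrawal rats, although rat 6 (0.22) is just below control rat 3 (0.23).

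Withdrawal rats 1 and 2 shared an index set with the ethanol rats, which allowed a comparison within 1 set. Both rats lay above all 6 ethanol rats for Relb and Nfkb2, and 9 of the 10 genes had a higher mean in these 2 rats, with a median difference of 0.23 on the log2 scale. Of all genes tested, 3.41% had both rats above all ethanol rats and 48.6% had a higher mean in them. The difference was highest for Bcl3, at 1.23, where rat 1 (4.26 CPM) lay above all ethanol rats and rat 2 (0.658 CPM) did not. It was 0.68 for Relb, 0.63 for Nfkb2, and 0.59 for Tnfrsf1a, the last of which rested on rat 1 (25.8 CPM) since rat 2 (13.0 CPM) was within the ethanol range. With 2 rats no test was made.

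The other genes of the pathway were followed in 7 lists of 81 genes, of which 69 were tested. Between withdrawal and control 6 were increased and 2 were decreased (8 genes, limma-voom, q < 0.1, background 5.41%, of which 2.55% decreased), with a median log2 fold change of 0.07. Between ethanol and control 0 were DE (background 0.493%), and between withdrawal and ethanol 2 were increased (background 2.72%), Ccl2 and Cflar. Ccl2 passed the filter on low values only through withdrawal rats, and without such genes, a choice made after the values were seen, the counts were 7 and 1 in the comparisons of withdrawal with control and with ethanol. With another tool, DESeq2 with the same surrogate variables, the list counts were 11, 0, and 6, where 1624, 473, and 1176 of all genes were called. Without withdrawal rat 6 they were 0, 0, and 0, where 23, 28, and 0 of all genes were called, and without withdrawal rat 2 they were 13, 0, and 5, where 1911, 87, and 1009 of all genes were called. The shifts of the list counts thus came with shifts over all genes.

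Of 10 TNF-family ligands, 5 were tested and 1, Tnfsf13, fell in withdrawal, from 22.2 ± 3.25 to 16.1 ± 3.87 CPM (SD, n = 6; log2 fold change −0.46, q = 0.0779). Tnf itself had no count in any of the 18 rats, and neither had Ltb and Tnfsf11. By counting error alone a 0 allows a level of up to between 0.0703 and 0.0972 CPM (3 counts per library), but whether the annotation or the mapping of reads left these 3 genes without counts was not tested, so the 0 is not a measure of their absence. Of 12 other TNF-family receptors, 11 were tested and 2 rose in withdrawal. These were Ltbr, the lymphotoxin receptor that feeds the noncanonical branch, from 17.4 ± 0.972 to 20.5 ± 2.43 CPM (log2 fold change 0.28, q = 0.0259), and Tnfrsf12a, the receptor for TWEAK, from 2.21 ± 0.104 to 4.95 ± 3.33 CPM (log2 fold change 0.92, q = 0.0980). Tnfrsf12a was higher in every withdrawal rat than in every control rat, with rat 1 at 11.3 CPM. Ethanol rats had an Ltbr level of 21.03 ± 2.54 CPM (log2 fold change over control 0.18, limma-voom q = 0.255).

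Of the 18 receptor-complex adaptors and enzymes, 0 were DE between withdrawal and control. Ripk1, the kinase recruited to the receptor, had a log2 fold change of 0.16 (q = 0.171), and Tradd, the first adaptor to bind it, had −0.19 (q = 0.436). Cflar, an inhibitor of caspase activation, was higher in withdrawal than in ethanol rats (31.7 ± 2.81 against 28.0 ± 2.85 CPM, log2 fold change 0.26, q = 0.0895). Of the 6 kinases and scaffolds of the IκB kinase step, 0 were DE in any comparison, and Chuk (IKKα) and Ikbkg, the regulatory subunit, had log2 fold changes of 0.07 and 0.02 between withdrawal and control. Of the 5 other Rel and IκB genes 0 were DE, with log2 fold changes of 0.15 for Rel, 0.11 for Nfkbib, and −0.02 for Nfkbie. Of the 8 inhibitors of NF-κB activation, 1, the deubiquitinase gene Cyld, fell from 92.1 ± 6.78 to 81.7 ± 6.76 CPM (log2 fold change −0.14, q = 0.0968), and Tnfaip3 (A20) had a log2 fold change of 0.16 (limma-voom q = 0.312).

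Of 22 known NF-κB target genes, 16 were tested, and 4 rose in withdrawal over control, with a median log2 fold change of 0.44 over the 16. Of these 16, Ccl2 and Cxcl1 had more than 0.5 CPM only in withdrawal rats and so were tested only through the group in which they were high. Of the other 14, 3 rose and the median was 0.33. Ccl2, a chemokine that attracts monocytes, lay between 0.0286 and 0.253 CPM in control, between 0.113 and 0.162 CPM in ethanol, and from 0.235 up to 4.98 CPM in withdrawal (log2 fold change 2.69 over control, SE 0.63, q = 0.0386). Because it was kept only through withdrawal rats, this q is no independent support. The lowest control value was also below 3 counts per library (0.0703 to 0.0972 CPM), so the fold change rests on few reads. The median of the withdrawal rats was 0.463 CPM, far below the highest rat. Icam1, an adhesion molecule for leukocytes, rose from 4.26 ± 0.470 to 6.50 ± 2.73 CPM (log2 fold change 0.56, q = 0.0784). Cebpd, a transcription factor of inflammation, rose from 9.69 ± 1.84 to 14.3 ± 4.95 CPM (log2 fold change 0.59, q = 0.0504), and Irf1, an interferon response factor, from 7.96 ± 0.799 to 9.85 ± 1.76 CPM (log2 fold change 0.30, q = 0.0919). In ethanol rats Icam1 stood at 5.65 ± 0.530 CPM, which did not pass the threshold against control (log2 fold change 0.41, limma-voom q = 0.354). Withdrawal rat 1 was the highest rat for Ccl2, Icam1, and Irf1, and rat 6 for Cebpd. Ccl20, Cxcl2, Nos2, Il1b, Il6, and Ccl5 were below the level needed for testing.

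**Figure D5:**
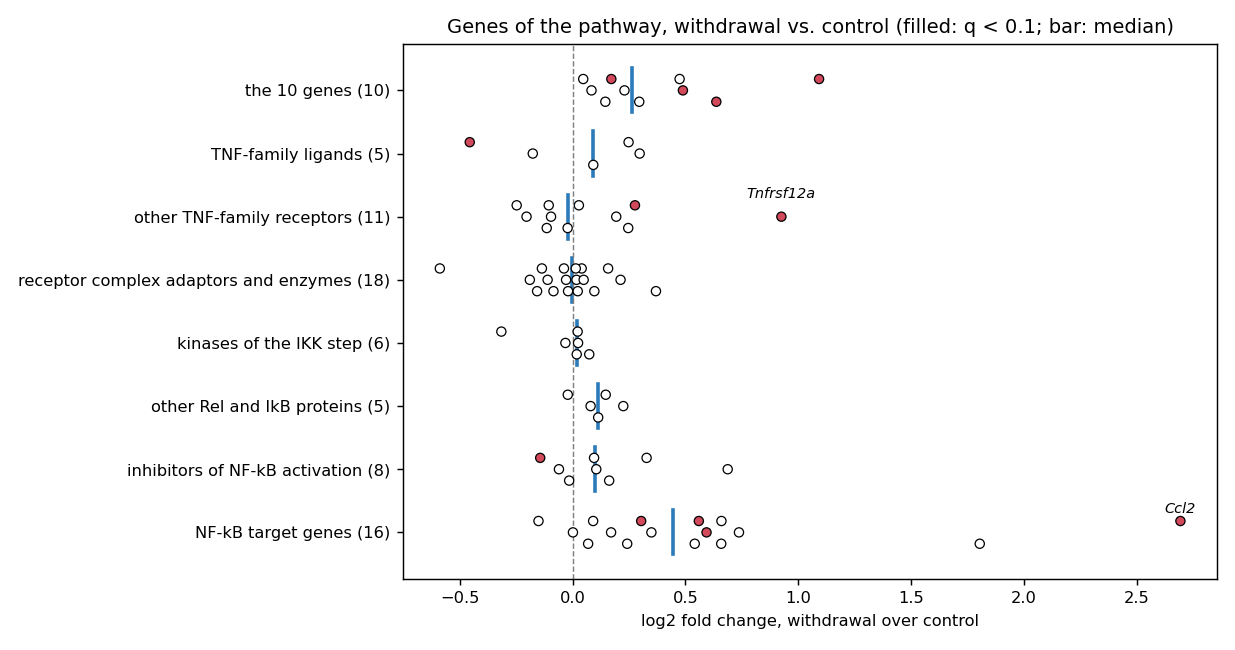
log2 fold change between withdrawal and control (horizontal axis) for the 10 genes and for the genes of 7 pathway lists, with filled points for q < 0.1, a bar at each median, and the number tested in parentheses. The 10 genes and the target genes have medians of 0.26 and 0.44 (0.33 without the 2 target genes above 0.5 CPM only in withdrawal rats), and the other lists have medians between −0.02 and 0.11.

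Markers of cell types were set beside these differences, since in whole tissue fewer cells of a type and less RNA per cell cannot be told apart. Of 7 endothelial markers, 4 were increased in withdrawal (Pecam1, Flt1, Kdr, and Esam), and their sum was 216 to 268 CPM in control, 233 to 276 in ethanol, and 238 to 319 in withdrawal rats, highest in withdrawal rat 1. Of 8 microglial markers, 1 (C1qb) was higher, and the sum was 213 to 235, 204 to 228, and 184 to 247 CPM. Of 7 astrocyte markers, Gfap was higher and Aldh1l1 and Gja1 were lower, with sums of 2907 to 3288, 2497 to 3269, and 2439 to 3983 CPM. Of 5 mural markers, 1 (Pdgfrb) was higher, with sums of 88.1 to 119, 96.6 to 142, and 107 to 176 CPM. None of the markers on these lists was at 0 in every rat. Of 5 oligodendrocyte markers and 6 neuronal markers 0 were DE, with neuronal sums of 5501 to 6357, 4543 to 6996, and 4636 to 6581 CPM. Of the 5 hippocampal neuron markers 1 (Prox1) was lower, and their sum was 550 to 762 CPM in control, 363 to 782 in ethanol, and 204 to 705 in withdrawal rats, with 390 CPM in withdrawal rat 1 and 705 in rat 6. Of 7 markers of blood leukocytes, 6 were found and 1 was tested, and its difference was not significant. Of the 5 choroid plexus and 4 thalamus markers 0 were DE between withdrawal and control, and the choroid plexus sum ranged from 1026 to 2148 CPM in control, from 1340 to 5060 in ethanol, and from 25.9 to 5012 in withdrawal rats, highest among the last in rat 6. The part of cell makeup in the differences of the 10 genes was not tested.

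The genes whose levels followed each DE member most closely over the 18 rats were found by the rank correlation of log2 CPM among all genes tested. For Tnfrsf1a they were Bcar1 (Spearman's rho 0.93), Pmepa1 (0.89), and Actn4 (0.88). For Relb they were Lgr4 (0.92), Clock (0.87), and Itga6 (0.86), and for Bcl3 they were Tmem100 (0.93), Slc1a4 (0.90), and Scaf8 (0.86). For Nfkb1 they were Nhsl3 (0.86), Gpc6 (0.86), and Tceal9 (0.85). Leaving out withdrawal rat 1 left each of these values between 0.83 and 0.94. The rats of a group share their treatment, and the values describe likeness only.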

How the data were processed

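Stranded libraries of dorsal hippocampal RNA from 18 rats were read from both ends. Per the labels, STAR 2.5.2a and featureCounts 1.5.0 were used with the rat genome Rnor_6.0, and the authors deposited raw counts per gene without normalization, summed over exons with regard to strand. Gene names were taken from a RefSeq table of assembly GRCr8, which named 29322 of the 38445 identifiers. Gene coordinates are those of the deposited files (Rnor_6.0) and promoters those of GRCr8. Groups and replicate numbers came from the sample titles. The 45 pairs of rats of 1 group were compared for repeated libraries, and the lowest chi-square per degree of freedom was 5.74, so none was taken as repeated.

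Counts were normalized with TMM (edgeR 4.0.16), genes above 0.5 CPM in at least 1 rat were kept, and scaling was recalculated. All 3 groups entered one limma 3.58.1 model (voom, R 4.3.3) with 3 surrogate variables (sva 3.50.0, log2 CPM with a prior count of 2). The study's methods name limma-voom and surrogate variables, and its results use q < 0.1. The methods give neither the number of surrogate variables nor of rats in the filter, which follow an earlier analysis of these data. Benjamini-Hochberg adjustment was made over 17853 genes within each comparison. Intervals of log2 fold changes are 95% intervals of this model. Single values were compared by two-sided exact permutation tests of log2 CPM over 924 splits. On simulated data, with 200 of 17604 genes changed 2-fold between withdrawal and control, 149 were recovered with 17 false calls, and 0 genes were called where none was changed. The simulated unnamed variation was drawn independently of the groups, and only 2-fold changes were simulated. The simulation therefore cannot decide how the model performs for smaller changes or where groups and index sets coincide.

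The members, the pathway and marker lists, and the tests were chosen with earlier results of these data known. Besides the members and a fixed set of pathway genes (Tnf, Rel, Nfkbib, Nfkbie, Ikbkg, Chuk, Ripk1, Tradd, Tnfaip3, Icam1, and Ccl2), the text names up to 4 genes per list with the smallest q among those with q < 0.1, and for each member called between withdrawal and control the 3 genes with the highest rank correlation. Genes named for being at 0 or below the filter were chosen after their values were seen. Sequences are those of called members with the loose motif, and the GGNNNTTCC windows were added later. Alternatives were other numbers of surrogate variables, scalings, filters, thresholds and samples, edgeR's quasi-likelihood test, DESeq2 1.42.0, sample quality weights, a replicate block, and each rat left out. Tables and figures were made in Python 3.11.15 (pandas 2.3.3, scipy 1.17.1, matplotlib 3.10.9).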

Additional observations from a re-analysis of the deposited data

Results flagged for a closer look

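In 4 of 30 groups of 6 rats (10 genes in 3 groups) 1 rat lay so far from the others that its gap to the nearest rat took more of the group's range than Dixon's 95% critical value for 6 samples, where chance gives about 1 in 20 groups, or 1.5. In withdrawal rats this held for rat 1 in Nfkb2 (7.94 CPM, the nearest rat at 5.38) and in Rela (28.9 CPM, the nearest at 25.5), and for rat 3 in Tnfrsf1b (3.25 CPM, the nearest at 2.44). In control rats it held for rat 1 in Nfkb1 (33.04 CPM, the nearest at 30.99). The high values of withdrawal rat 1 in Tnfrsf1a and Bcl3 did not meet this rule, since withdrawal rat 6 was also high.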

How the results depend on the processing

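In withdrawal vs. control, the log2 fold changes of the 10 genes kept their direction in all 34 alternatives, except that of Traf2 without withdrawal rat 6 (−0.036). Of these alternatives, q < 0.05 changed only the threshold and not the fit. The number of the 10 genes with q < 0.1 was 4. It was 2 with 2 surrogate variables, no filter, only the 2 groups compared, q < 0.05, or sample quality weights without surrogate variables, and 0 without surrogate variables by limma-voom or edgeR, and by limma-voom also without withdrawal rat 1 (chosen after seeing the data). For the 10 genes it was 6 with 4 surrogate variables and 5 with edgeR or DESeq2 and 3 surrogate variables. In the same order, 1362, 1030, and 1624 of all genes were called. For the pathway lists, with 8 genes, the settings that gave 2 of the 10 gave in the same order 4, 3, 1, 2, and 1, and those that gave 0 gave 0. In withdrawal vs. ethanol, the 2 genes became 4 with DESeq2, 1 with 2 surrogate variables or without surrogate variables and withdrawal rat 1, and 0 with no filter, only the 2 groups compared, or q < 0.05. In the same order, 1176, 260, 164, 166, 0, and 112 of all genes were called. The 2 list genes became 8 with quality weights, 6 with DESeq2, 4 without surrogate variables by limma-voom or edgeR, 1 with a filter of 0.5 CPM in 6 rats or without surrogate variables and withdrawal rat 1, and 0 with 2 surrogate variables, no filter, only the 2 groups compared, or q < 0.05. In ethanol vs. control, 1 list gene instead of 0 was called with quality weights or without surrogate variables and withdrawal rat 1. The cause of these shifts was not tested. Over all genes, the 965 calls between withdrawal and control became 41 without surrogate variables and lay between 0 and 1624 over the 16 settings, the 88 between ethanol and control became 0 to 506, and the 486 between withdrawal and ethanol 0 to 1486.

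When each of the 18 rats was omitted singly, the calls among the 10 genes numbered 0 to 5 against control and 0 to 5 against ethanol in withdrawal, and 0 to 0 between ethanol and control. For the list genes it was 0 to 13, 0 to 9, and 0 to 0, and for all genes 23 to 1911, 0 to 1800, and 0 to 258. Without withdrawal rat 6 the counts of the 10 genes and of the list genes were 0 in every comparison, without control rat 2, 3, 4, or 6 or withdrawal rat 1 the count of the 10 genes against control was 2, and without ethanol rat 2 or 3 the count against ethanol was 0, and without ethanol rat 5 it was 5. The list genes called against control were 2 to 4 without any 1 control rat or withdrawal rat 1, 5 without ethanol rat 3 or 6, and 13 without withdrawal rat 2, and those called against ethanol were 0 or 1 without control rat 1, 2, 3, 5, or 6 or ethanol rat 1, 2, 3, or 6, and 9, 5, and 4 without ethanol rat 5, withdrawal rat 2, and withdrawal rat 5. The log2 fold change changed sign in some of these fits for Nfkbia (−0.16 to 0.12), Bcl3 (−0.15 to 0.22), Ikbkb (−0.0069 to 0.031), and Relb (−0.12 to 0.092) between ethanol and control, for Traf2 in withdrawal against control (−0.036 to 0.089) and against ethanol (−0.027 to 0.12), and for Rela in withdrawal against ethanol (−0.026 to 0.060). In the other settings it changed sign between ethanol and control for Nfkbia (0.041, 0.0069, 0.0072, 0.11, 0.091, 0.091, 0.055, and 0.11), Bcl3 (−0.11, −0.0090, and −0.0036), Ikbkb (−0.014, −0.016, −0.015, −0.015, and −0.023), and Traf2 (0.0076, 0.0096, 0.0097, and 0.0097), and between withdrawal and ethanol for Rela (−0.0035, −0.037, −0.0016, and −0.016), and none of these passed q < 0.1.

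Each rat belonged to a single group. Between groups, the deviations of rats that carried a common replicate number did not correlate over 0.1 in every pair (−0.32 to 0.38). Correlations of both signs cannot decide whether these rats were paired. The paper states that rats were pair fed, but not whether the replicate numbers follow that pairing, and this was not tested. With the replicate block and 3 surrogate variables, 6 of the 10 genes were called in withdrawal vs. control, 0 in ethanol vs. control, and 0 in withdrawal vs. ethanol, and 0 list genes were called in the last. Over all genes, 941, 33, and 1 were called in these 3 comparisons. With the replicate block without surrogate variables 0 of the 10 genes and 0 list genes were called in any comparison, where 0, 0, and 14 of all genes were called. Counts limit Bcl3 (17 to 131 per rat), Tnfrsf1b (51 to 132), and Relb (86 to 185), and genes of the pathway with few counts were not tested.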
